A study of Trametes versicolor with 12 samples.

Results

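The change with culture age was measured in mycelium of Trametes versicolor strain BRFM1218, in 6 of the 12 RNA-seq libraries of a study of a pair of strains. Members were chosen by their labels: 3 cultures of 4 weeks against 3 cultures of 2 weeks, all BRFM1218, across 14296 gene models. Cultures of each age were grown on agar with 4% malt, and RNA came from separate cultures, which the labels call biological replicates. The other 6 libraries, of strain 1956-1252 at the same ages, entered the fit to estimate the spread and are used below only to show where BRFM1218 differed.

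Trametes versicolor is a basidiomycete that causes white rot, in which lignin is broken down together with cellulose. White-rot fungi secrete oxidative enzymes that act on lignin. Class II peroxidases are haem enzymes that use hydrogen peroxide: lignin peroxidases oxidise non-phenolic lignin units, manganese peroxidases oxidise manganese(II), and versatile peroxidases do both. Laccases are copper enzymes that oxidise phenols with oxygen, and dye-decolorizing and haem-thiolate peroxidases are further haem peroxidase families of fungi. The medium here held malt and not wood. In bulk RNA, fewer cells with a transcript and less of it per cell cannot be told apart.

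Reads assigned to gene models numbered 60610826, 63512650 and 34004441 in the 4-week libraries, against 31763162, 37237978 and 38609061 in the 2-week libraries. At these depths 3 reads stood for 0.0569 to 0.114 CPM, where CPM is the normalised read count, scaled to a common library size between libraries. Libraries of the same age were close: of 7683 genes with a mean of at least 10 CPM, 3 to 11 lay more than 2-fold apart in any pair of same-age libraries, against 875 to 930 in any pair of different ages. The first principal component of these genes held 92.3% of the variance and separated the ages. The second, with 3.3%, set 4-week replicate 2 apart from 4-week replicate 3. The median coefficient of variation of CPM over these genes was 7.1% at 4 weeks and 4.6% at 2 weeks. Replicate 2 had the highest and replicate 3 the lowest summed level among 4-week libraries in lignin, manganese, versatile and dye-decolorizing peroxidases and in laccases. In haem-thiolate peroxidases replicate 3 was highest and replicate 2 lowest (160.2, 158 and 166 CPM in replicates 1 to 3). The same held for the sum of LDO1, LDO2 and CCP1 (463, 453 and 495 CPM).

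Most of the transcriptome moved with age, mainly by small amounts. Of 14296 models, 12648 passed the filter on low counts and were tested, and 60.4% of these were called, meaning an edgeR adjusted p under 0.05. Higher at 4 weeks were 4175 (33.0%) and lower 3468 (27.4%). With the 6 BRFM1218 libraries fitted alone, where 11635 were tested, 3310 were higher and 3352 lower. Of the genes called in the fit to all libraries 48.1% differed by less than 1.5-fold. At least 2-fold higher were 1196 (9.46%), and at least 2-fold lower 746 (5.9%). With a trend with model length removed these were 939 and 855. A test against a 2-fold change itself (glmTreat) kept 522 higher (4.13%) and 369 lower (2.92%). At least 8-fold changes (3 on the log2 scale) were called in 72 genes that were higher and 76 that were lower. The median log2 fold change of all tested genes was 0.06.

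Genes that were at least 2-fold higher gave 9.84, 10.5 and 9.77% of the summed RPKM (reads scaled by model length and library size, as deposited) in the 4-week libraries, against 3.67, 3.68 and 3.56% in the 2-week libraries. Genes that were at least 2-fold lower gave 2.45, 2.54 and 2.39% at 4 weeks, against 6.76, 6.82 and 6.66% at 2 weeks. Choosing the genes from these libraries fixed the direction of both shifts, and the 2-fold limit favoured a large size. The shares therefore only describe how much of the signal these genes held. Rises of at least 2-fold were most frequent among weakly expressed genes. They made up 10.3% of 1905 genes with a mean under 1 RPKM, 14.3% of 3926 genes with a mean of 1 to 10 RPKM, 6.51% of 5251 genes with 10 to 100 RPKM and 6.07% of 1566 genes with 100 RPKM or more. Falls of that size were spread more evenly, at 7.77, 6.62, 5.07 and 4.6% of the same classes. Genes that changed at least 2-fold had shorter models, with a median of 1025 bases for those higher and 1102 for those lower, against 1241 over all tested genes. Removing a trend with model length moved the share of called genes that were higher to 49.2%, against 54.6% without it.

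**Figure D1:**
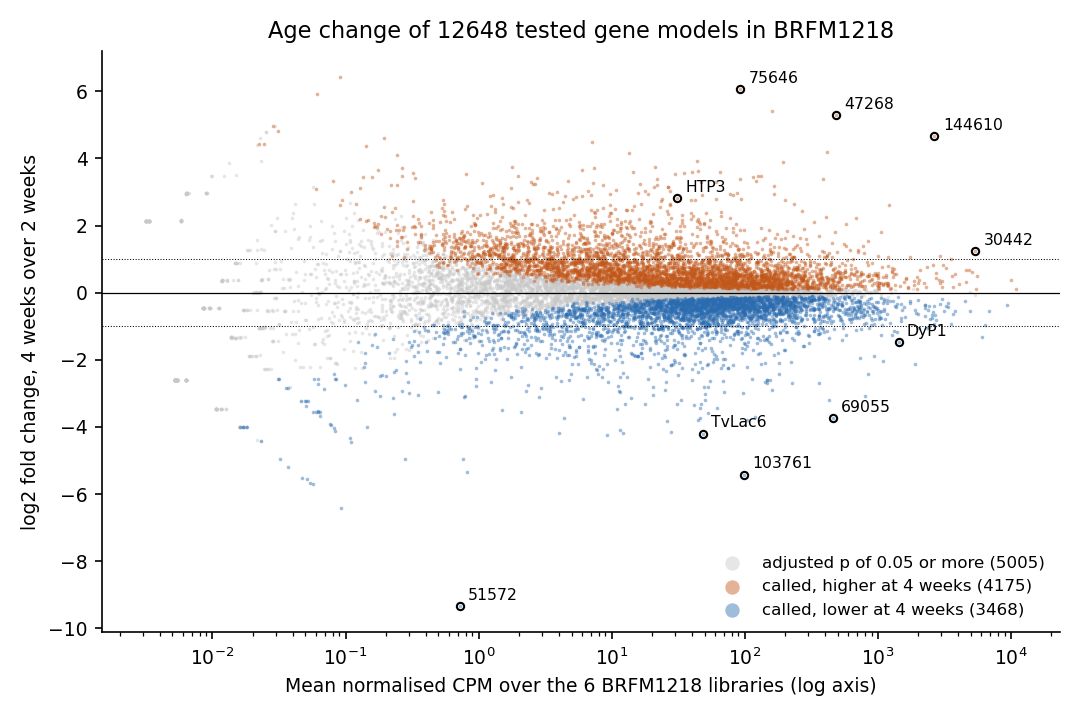
Each point is 1 of 12648 tested gene models in BRFM1218, with its mean normalised CPM over the 6 libraries on a log axis and its fitted log2 fold change, 4 weeks over 2 weeks. Numbered points are gene models described in the text, dotted lines mark 2-fold changes, and called genes lie on either side of 0 in similar numbers, 4175 higher and 3468 lower.

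Among the 42 genes with a symbol in the RefSeq gene table, all of which were tested, 19 were higher, 12 lower and 11 not called, against 33.0% higher and 27.4% lower over all tested genes. At least 2-fold higher were 14 (9.46% over all tested genes) and at least 2-fold lower 5 (5.9%). The table gives symbols only to oxidative enzymes, so other pathways could not be named. The direction differed between families. Lignin peroxidases were higher, manganese and versatile peroxidases were mixed, the laccases that were most abundant at 2 weeks were lower, and the haem-thiolate and dye-decolorizing peroxidases held the largest changes in each direction among haem enzymes.

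**Figure D2:**
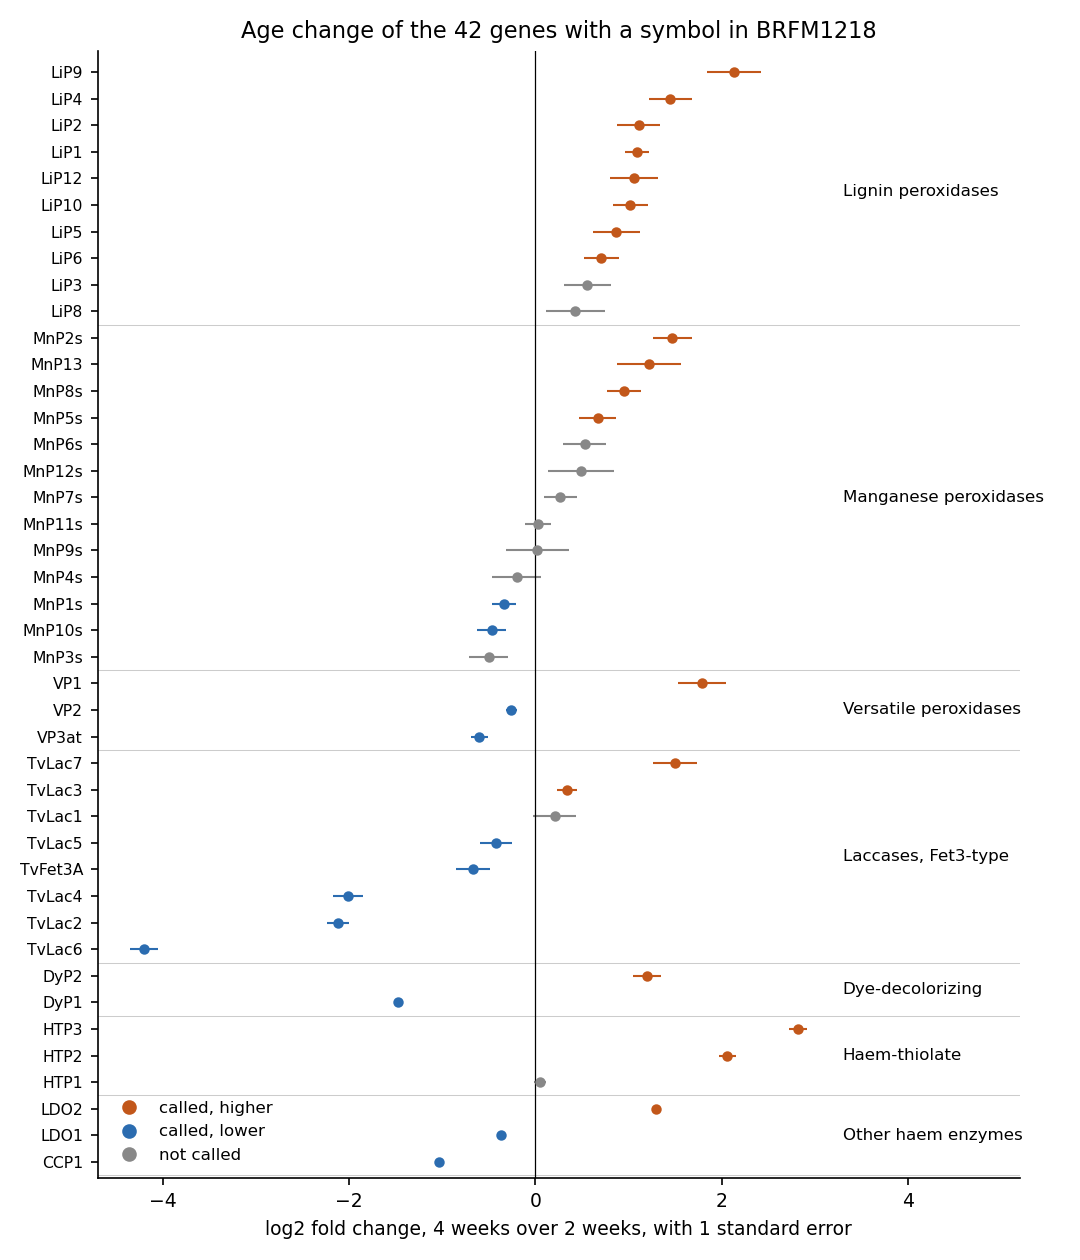
Fitted log2 fold change, 4 weeks over 2 weeks, with 1 standard error on each side, for the 42 genes with a symbol in BRFM1218, grouped by family. All 10 lignin peroxidases lie right of 0, with 8 called, while laccases run from -4.20 for TvLac6 to 1.5 for TvLac7.

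Lignin peroxidase transcripts were higher in the older cultures and remained rare. Of the 10 genes, 8 were higher and 0 lower, against 33.0% and 27.4% of all tested genes, and 7 had 4-week libraries that were all above the 2-week libraries (31.8% of tested genes did). The median log2 fold change was 1.04 in the list and 0.06 over all tested genes. LiP1, the most abundant of them per length by mean, had 10, 14.0 and 11.9 CPM at 4 weeks and 5.47, 5.46 and 5.91 CPM at 2 weeks (log2 fold change 1.09, SE 0.13, edgeR adjusted p = 1.97e-06). LiP2 had 12.3, 9.88 and 5.56 CPM at 4 weeks and 3.76, 3.81 and 5.37 CPM at 2 weeks (1.11, SE 0.23, edgeR adjusted p = 0.000462). Its lowest 4-week library, replicate 3, came close to the highest 2-week one without overlap. LiP10 had 8.11, 9.46 and 5.74 CPM at 4 weeks and 3.95, 3.42 and 4.17 CPM at 2 weeks. LiP9 had the largest change of the family, with 3.15, 3.70 and 2.36 CPM at 4 weeks and 0.646, 0.808 and 0.664 CPM at 2 weeks, a fitted log2 fold change of 2.13 (SE 0.29). These levels rest on 422 reads over the 4-week libraries and 63 over the 2-week libraries.

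The summed lignin peroxidase level was 55.4, 57.9 and 42.3 CPM at 4 weeks and 23.9, 24.2 and 28.6 CPM at 2 weeks. The 3 leading members stayed the same. LiP1 gave 23.5 ± 5.08% of the family's summed RPKM at 4 weeks and 22.1 ± 1.21% at 2 weeks (SD, n = 3 each). LiP2 and LiP10 followed in that order by mean share at each age. Single libraries departed from this order: in 4-week replicate 1 LiP2 gave 22.1% and LiP1 18.1%. LiP10 was above LiP2 in 4-week replicate 3 (13.7 and 13.2%) and in 2-week replicate 1 (16.7 and 15.8%). LiP9 gave 5.98 ± 0.437% at 4 weeks and 2.84 ± 0.522% at 2 weeks. LiP3 and LiP8 were not called: LiP3 had 2.34, 3.56 and 2.78 CPM at 4 weeks and 1.37, 2.58 and 1.93 CPM at 2 weeks, with overlap. LiP8, the weakest at 4 weeks, had 1.06 ± 0.319 CPM at 4 weeks and 0.816 ± 0.338 CPM at 2 weeks (SD, n = 3 each). LiP5 was called (0.87, SE 0.25, edgeR adjusted p = 0.0066), though its 2-week replicate 3, at 3.70 CPM, was above its lowest 4-week library, at 3.3 CPM.

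The manganese peroxidases changed within the family more than in sum. Of 13 genes, 4 were higher, 2 lower and 7 not called, so that the shares did not exceed those over all genes (33.0% and 27.4%). MnP2s, MnP13, MnP8s and MnP5s were higher and MnP10s and MnP1s lower. MnP5s, at 2.53 ± 0.303 CPM at 4 weeks and 1.60 ± 0.13 CPM at 2 weeks (SD, n = 3 each), was not called with the 6 BRFM1218 libraries alone (log2 fold change 0.62, adjusted p = 0.111). MnP2s had 9.36, 11.8 and 6.47 CPM at 4 weeks and 2.54, 3.3 and 4.14 CPM at 2 weeks (log2 fold change 1.47, SE 0.21, edgeR adjusted p = 1.35e-05). MnP8s had 5.91, 8.76 and 8.48 CPM at 4 weeks and 3.15, 4.07 and 4.68 CPM at 2 weeks. MnP13 had 1.57, 2.24 and 1.18 CPM at 4 weeks and 0.532, 0.517 and 1.11 CPM at 2 weeks. In each of these 3 genes the ages did not overlap, though in MnP13 the gap was only 1.18 against 1.11 CPM, with 65 reads at 2 weeks. All 4-week libraries were above all 2-week libraries in 5 of the 13 genes, against 31.8% of tested genes.

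MnP10s and MnP1s were the most abundant manganese peroxidases per length at each age, and they fell slightly. MnP10s had 20.5, 24.1 and 17.2 CPM at 4 weeks and 26.9, 28.9 and 30.2 CPM at 2 weeks (-0.47, SE 0.16, edgeR adjusted p = 0.0146), a call that ended without 4-week replicate 3 (-0.36, adjusted p = 0.0564). MnP1s had 15.9, 19.7 and 15.3 CPM at 4 weeks and 22.6, 19.6 and 22.6 CPM at 2 weeks, which overlap. Its fitted change was -0.34 (SE 0.13, edgeR adjusted p = 0.0293), with adjusted p of 0.0843 to 0.096 without any of 4 libraries, namely 2-week replicates 1 and 3 (-0.31 each) and 4-week replicates 1 and 3 (-0.29 and -0.28). MnP10s gave 25.7 ± 0.848% of the family's RPKM at 4 weeks and 35.9 ± 1.07% at 2 weeks, and MnP2s 11.3 ± 1.82% at 4 weeks and 4.13 ± 0.82% at 2 weeks (SD, n = 3 each). The summed family level was 78.5, 91.3 and 69.5 CPM at 4 weeks and 77.7, 78.5 and 84.0 CPM at 2 weeks, with overlap. The count of lower manganese peroxidases was 1 without 2-week replicate 1 and 0 without 4-week replicate 3.

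VP2 was the most abundant class II peroxidase in every BRFM1218 library. It gave 35.6 ± 2.41% of the summed class II RPKM at 4 weeks and 43.4 ± 0.917% at 2 weeks (SD, n = 3 each). Its levels were 102, 106 and 101 CPM at 4 weeks, all below the 120, 124 and 125 CPM at 2 weeks (log2 fold change -0.26, SE 0.06, edgeR adjusted p = 0.000933). VP3at was also lower, with 19.1, 16.1 and 17.0 CPM at 4 weeks and 30.0, 24.0 and 25.1 CPM at 2 weeks (-0.60, SE 0.09). VP1 was higher and rare, with 3.89, 3.36 and 4.21 CPM at 4 weeks and 0.57, 1.42 and 1.26 CPM at 2 weeks (1.79, SE 0.26).

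Laccase transcripts fell as a group total, and a different gene led the family. The summed laccase level was 53.1, 63.4 and 48.6 CPM at 4 weeks and 185, 181 and 195 CPM at 2 weeks. Of 7 laccases, 4 were lower, 2 higher and 1 not called, against 27.4% lower and 33.0% higher over all tested genes. At least 2-fold lower were 3 (5.9% of tested genes were) and at least 2-fold higher 1 (9.46%). TvLac6 had 3.69, 6.52 and 4.73 CPM at 4 weeks, against 89.4, 90 and 96.6 CPM at 2 weeks, the largest fall of any gene with a symbol (log2 fold change -4.20, SE 0.15, edgeR adjusted p = 4.01e-13). TvLac2 had 10.8, 12.5 and 8.80 CPM at 4 weeks and 47.2, 46.1 and 47.6 CPM at 2 weeks. TvLac4 had 3.73, 4.51 and 4.49 CPM at 4 weeks and 18.7, 15.7 and 16.9 CPM at 2 weeks. In these 3 genes all 4-week libraries were below all 2-week libraries, which held for 27.0% of tested genes.

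Per length, TvLac6 gave 9.47 ± 1.86% of the laccase RPKM at 4 weeks and 50.8 ± 0.739% at 2 weeks, and TvLac3 gave 32.7 ± 1.06% at 4 weeks and 7.48 ± 0.839% at 2 weeks (SD, n = 3 each). TvLac3 thus led the family at 4 weeks and ranked 4th at 2 weeks. Its own level differed little, with 17.5, 20.4 and 16.7 CPM at 4 weeks and 15.8, 12.4 and 15.1 CPM at 2 weeks. That rise (0.34, SE 0.11, edgeR adjusted p = 0.0118) was not called without 2-week replicate 2 (0.24, adjusted p = 0.0734), without 4-week replicate 2 (0.24, adjusted p = 0.0653), or when the 6 BRFM1218 libraries were fitted alone (0.29, adjusted p = 0.0723).

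TvLac7 was the only other laccase called higher in the fit to all libraries, with 3.29, 4.19 and 4.17 CPM at 4 weeks and 1.37, 1 and 1.74 CPM at 2 weeks (1.5, SE 0.24, edgeR adjusted p = 3.97e-05). TvLac1 was not called, at 5.44 ± 1.73 CPM at 4 weeks and 4.75 ± 1.30 CPM at 2 weeks (SD, n = 3 each). TvLac5 had 6.80, 9.90 and 5.95 CPM at 4 weeks and 8.36, 10.9 and 11.2 CPM at 2 weeks, which overlap, and its fitted change of -0.42 (edgeR adjusted p = 0.0413) was not called without any of 4 libraries: 2-week replicates 2 (-0.37, adjusted p = 0.119) and 3 (-0.35, adjusted p = 0.134), and 4-week replicates 1 (-0.34, adjusted p = 0.126) and 3 (-0.29, adjusted p = 0.136). Nor was TvLac5 called with the 6 BRFM1218 libraries alone (-0.47, edgeR adjusted p = 0.0506) or without the filter on low counts (-0.41, edgeR adjusted p = 0.0501). TvFet3A is named after Fet3, the yeast copper oxidase that takes part in iron uptake. It had 5.12, 8.08 and 4.87 CPM at 4 weeks and 11.4, 8.59 and 8.94 CPM at 2 weeks (-0.67, SE 0.18, edgeR adjusted p = 0.00472). Of its BRFM1218 reads 84.4% aligned uniquely, the lowest share among the 42 genes, so part of its count may belong to similar sequence.

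**Figure D3:**
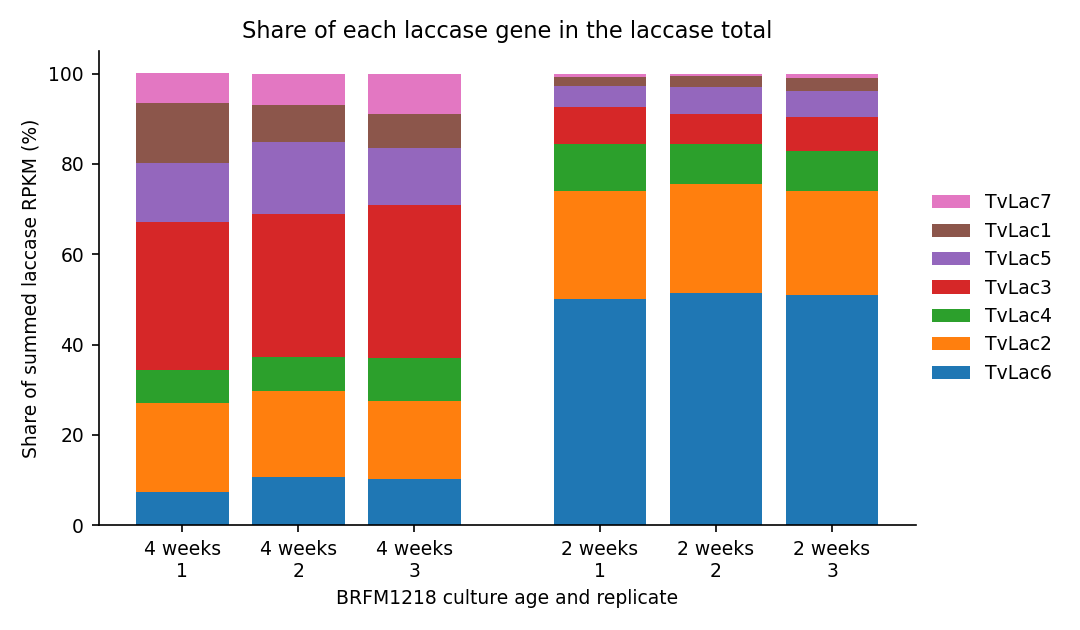
Stacked bars give the share of each of the 7 laccase genes in the summed laccase RPKM of each BRFM1218 library, with 4-week cultures on the left and 2-week cultures on the right. TvLac6 takes 7.34 to 10.8% at 4 weeks and 50 to 51.5% at 2 weeks, and TvLac3 takes 31.7 to 33.8% at 4 weeks and 6.63 to 8.31% at 2 weeks.

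The remaining haem enzymes differed widely in level and in change. DyP1, a dye-decolorizing peroxidase gene, had 762, 831 and 697 CPM at 4 weeks and 2098, 2107 and 2137 CPM at 2 weeks (log2 fold change -1.47, SE 0.05, edgeR adjusted p = 2.93e-13). Per length it ranked 404th of all gene models at 4 weeks and 133rd at 2 weeks. DyP2 was at a far lower level and higher with age, with 4.98, 5.18 and 5.11 CPM at 4 weeks and 1.37, 2.71 and 2.43 CPM at 2 weeks (1.20, SE 0.15).

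Haem-thiolate peroxidases, which transfer oxygen from peroxide to organic substrates, changed unequally. HTP3 had 54.7, 55.0 and 54.0 CPM at 4 weeks and 6.72, 7.04 and 9.26 CPM at 2 weeks (2.82, SE 0.10), and HTP2 had 75.6, 72.3 and 76.2 CPM at 4 weeks and 15.1, 20.1 and 18.5 CPM at 2 weeks (2.06, SE 0.09). HTP1 was not called, with 29.9, 30.4 and 35.7 CPM at 4 weeks and 29.6, 30.6 and 32.0 CPM at 2 weeks (0.05, SE 0.06). HTP1 was therefore the leading member at 2 weeks, with 56.0 ± 2.40% of the family's RPKM, and the least at 4 weeks, with 20.2 ± 1.56% (SD, n = 3 each).

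LDO1 and LDO2, named for linoleate diol synthases, which oxygenate fatty acids, moved in opposite directions. LDO1 had 182, 173 and 192 CPM at 4 weeks and 231, 238 and 238 CPM at 2 weeks (-0.37, SE 0.04, edgeR adjusted p = 1.07e-06). LDO2 had 123, 127 and 132 CPM at 4 weeks and 53.2, 49.7 and 51.7 CPM at 2 weeks (1.30, SE 0.04). CCP1, a cytochrome c peroxidase gene, whose yeast counterpart removes hydrogen peroxide in mitochondria, had 157, 154 and 171 CPM at 4 weeks and 335, 319 and 334 CPM at 2 weeks (-1.03, SE 0.05).

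Several of these genes are neighbours in the RefSeq gene table, and neighbours did not always change alike. The table names no chromosomes and its assembly may not be that of the files, so only gene order is used. With at most 9 gene models between them, 23 of the 42 genes fell into 7 groups. HTP2 and HTP3 stand next to each other and rose together. LiP1, LiP2, LiP12 and MnP2s lie within 6 gene models, and all 4 were higher by 1.06 to 1.47 on the log2 scale, whereas a gene model between LiP1 and LiP2, TRAVEDRAFT_62859, was lower (-0.42, SE 0.08). LiP4, LiP5 and LiP6, in another group, were all called higher (1.45, 0.87 and 0.71), and LiP3 and MnP11s of the same group were not called. Over all tested genes 33.0% were higher, and 8 of the 10 lignin peroxidases were. The counts in these groups therefore partly repeat that of the family. TvLac4 and TvLac5 are adjacent, with log2 fold changes of -2.01 and -0.42.

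A pair of groups held opposite changes. TvLac6 and TvLac7 are separated by 1 gene model, TRAVEDRAFT_167576, and had log2 fold changes of -4.20 and 1.5. The model between them was lower as well (-2.66, SE 0.09). DyP1 and DyP2, with 3 models between them, had log2 fold changes of -1.47 and 1.20. Among 6 manganese peroxidases spread over 15 gene models, MnP13 and MnP8s were higher and MnP7s, MnP4s, MnP6s and MnP9s were not called. For MnP9s 91.0% and for MnP4s 94.8% of reads aligned uniquely. The models without a symbol named in these groups were picked after their values were seen.

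**Figure D4:**
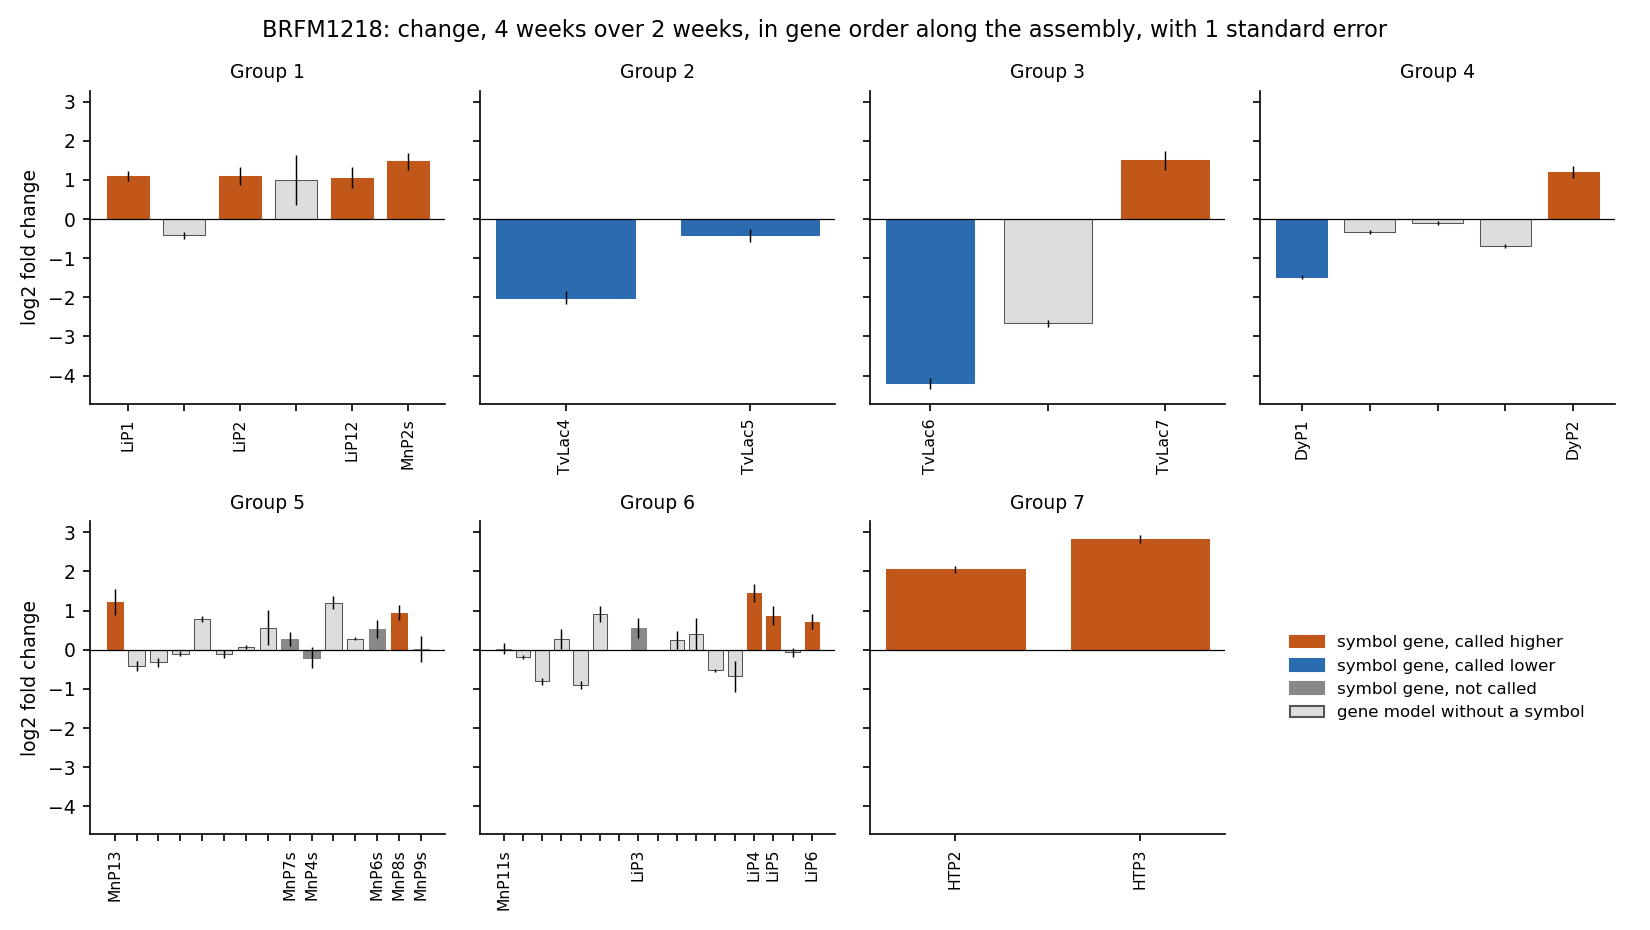
Log2 fold change, 4 weeks over 2 weeks, with 1 standard error, for genes with a symbol that have another such gene within 10 places along the RefSeq assembly, in gene order. Groups 1 and 7 hold symbol genes that all rose, and groups 3 and 4 hold TvLac6 with TvLac7 and DyP1 with DyP2, which moved in opposite directions.

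Across the genome the changes of neighbours were only loosely alike. Over 11921 adjacent pairs of tested genes, the correlation of log2 fold changes was 0.08 by Pearson and 0.08 by Spearman, a description of pairs that share their libraries. After a gene that was at least 2-fold higher, the next gene was also at least 2-fold higher in 16.7% of 1122 pairs, against 9.31% over all pairs. For falls this was 10.1% of 685 pairs, against 5.66%. Only 1 run of at least 4 adjacent models was at least 2-fold higher throughout, and 1 was at least 2-fold lower throughout.

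The run of rises held 5 models: TRAVEDRAFT_49267, TRAVEDRAFT_30003, TRAVEDRAFT_170355, TRAVEDRAFT_170356 and TRAVEDRAFT_49270. TRAVEDRAFT_49267 was at 32.9 ± 3.41 CPM at 4 weeks and 12.6 ± 1.48 CPM at 2 weeks (SD, n = 3 each). TRAVEDRAFT_30003 was rare, at 1.81 ± 1.18 and 0.806 ± 0.141 CPM, with 72 reads at 2 weeks, and its ages overlapped. TRAVEDRAFT_49270 was at 4.77 ± 3.28 and 0.5 ± 0.27 CPM, with 46 reads at 2 weeks. TRAVEDRAFT_170355 had 309, 325 and 271 CPM at 4 weeks and 154, 143 and 145 CPM at 2 weeks, and TRAVEDRAFT_170356 had 85.8, 78.6 and 76.5 CPM at 4 weeks and 25.9, 20.1 and 28.2 CPM at 2 weeks. Without 4-week replicate 1 TRAVEDRAFT_30003 was not called (0.44, adjusted p = 0.126, against 1.19 with it), and no run of 4 remains. It was also not called with the 6 BRFM1218 libraries alone (1.12, adjusted p = 0.0546) or with a replicate block (0.94, adjusted p = 0.107). TRAVEDRAFT_49270 was not called without 2-week replicate 1 (2.91, adjusted p = 0.055) or without 4-week replicate 2 (2.52, adjusted p = 0.077), against 3.25 with all libraries.

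The run of falls held 4 models. TRAVEDRAFT_22196 had 7.72, 9.16 and 7.96 CPM at 4 weeks and 99.1, 95.3 and 102 CPM at 2 weeks (-3.57, SE 0.08, edgeR adjusted p = 4.16e-16). TRAVEDRAFT_30478 was at 23.1 ± 1.10 CPM at 4 weeks and 109 ± 2.99 CPM at 2 weeks, TRAVEDRAFT_22197 at 104 ± 17.3 CPM at 4 weeks and 279 ± 9.13 CPM at 2 weeks, and TRAVEDRAFT_50222 at 30.9 ± 0.642 CPM at 4 weeks and 73.4 ± 1.98 CPM at 2 weeks (SD, n = 3 each). No description of these models was available here.

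The largest changes of all lay in gene models without a symbol, whose products are not annotated in the sources used here. Among genes with a mean of at least 10 CPM whose ages did not overlap, the 10 largest rises had log2 fold changes of 3.63 to 6.07 and the 10 largest falls of -5.42 to -3.74. TvLac6 was the only one of these 20 with a symbol, but only 42 of the 12648 tested genes have one. TRAVEDRAFT_144610 reached 5114, 5267 and 5075 CPM at 4 weeks, against 194, 202 and 209 CPM at 2 weeks (4.68, SE 0.05, edgeR adjusted p = 1.84e-19). Per length it ranked 54th of all models at 4 weeks and 1910th at 2 weeks. TRAVEDRAFT_47268 had 965, 945 and 920.5 CPM at 4 weeks and 25.9, 21.8 and 24.9 CPM at 2 weeks. TRAVEDRAFT_23196 had 793, 754 and 804 CPM at 4 weeks and 41.9, 48.5 and 38.1 CPM at 2 weeks, and ranked 55th per length at 4 weeks and 1487th at 2 weeks. These 3 were tight between replicates, while TRAVEDRAFT_50905 varied more at 4 weeks, with 342, 459 and 296 CPM at 4 weeks against 25.1, 23.9 and 24.2 CPM at 2 weeks.

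Among the falls, TRAVEDRAFT_103761 had 4.27, 5.08 and 3.93 CPM at 4 weeks, against 188, 189 and 199 CPM at 2 weeks (-5.42, SE 0.13, edgeR adjusted p = 2.03e-15). TRAVEDRAFT_69055 had 66.1, 65.5 and 61.0 CPM at 4 weeks and 887, 854 and 841 CPM at 2 weeks (-3.74, SE 0.05). TRAVEDRAFT_127472 had 13, 16.2 and 13.4 CPM at 4 weeks and 194, 205 and 188 CPM at 2 weeks. The other 6 models without a symbol among the largest falls ran from 0.73 CPM, in TRAVEDRAFT_52566 and TRAVEDRAFT_41469, to 6.86 CPM, in TRAVEDRAFT_21680, at 4 weeks. At 2 weeks they ran from 19.6 CPM, in TRAVEDRAFT_52566, to 87.0 CPM, in TRAVEDRAFT_21680.

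**Figure D5:**
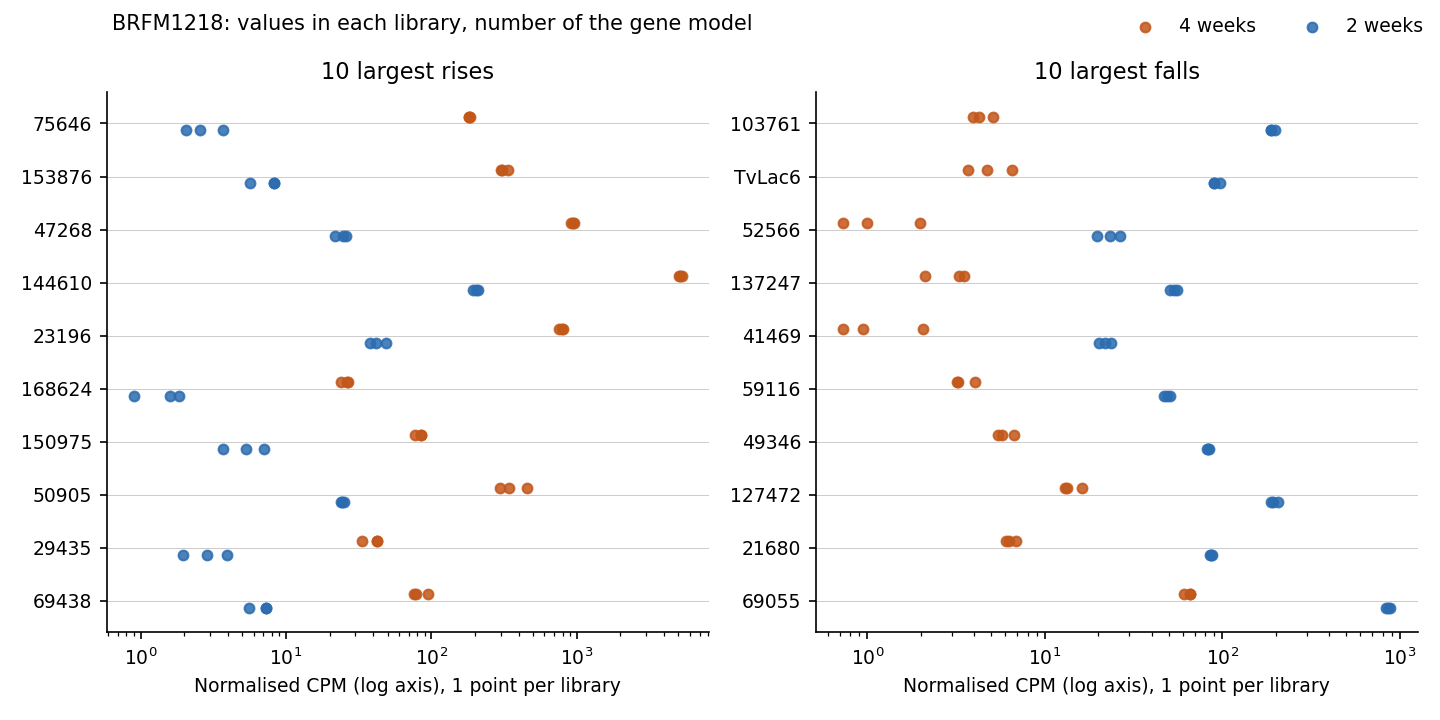
Normalised CPM on a log axis in each BRFM1218 library for the 10 largest rises and the 10 largest falls, labelled by the number of the gene model, with 4-week libraries as the upper points of each row and 2-week libraries as the lower. The ages do not overlap in any row, as the choice of these genes required.

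Among genes with a mean of at least 500 CPM, TRAVEDRAFT_144610 had the largest rise. TRAVEDRAFT_56391 had 2059.8, 2238 and 1993 CPM at 4 weeks and 349, 344 and 334 CPM at 2 weeks (2.61, SE 0.09). TRAVEDRAFT_28514 had 1132, 1093 and 1175 CPM at 4 weeks and 241, 237 and 252 CPM at 2 weeks (2.22, SE 0.06). These were the next largest rises at that level. The largest falls were TRAVEDRAFT_166188, at 168, 187 and 157 CPM at 4 weeks and 1422, 1459.8 and 1417 CPM at 2 weeks (-3.07, SE 0.06), TRAVEDRAFT_133129 (-2.43, SE 0.04) and TRAVEDRAFT_70601 (-2.14, SE 0.05). TRAVEDRAFT_70601 was at 705 ± 25.8 CPM at 4 weeks and 3097 ± 28.1 CPM at 2 weeks (SD, n = 3 each).

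The top of the expression range was partly exchanged. Of the 10 most abundant models by mean RPKM at each age, 7 were shared, of the 100 most abundant 70, and of the 1000 most abundant 852. TRAVEDRAFT_41381 ranked 1st at 4 weeks and 12th at 2 weeks, with 15013 ± 1650.1 RPKM at 4 weeks and 7023 ± 111 RPKM at 2 weeks (SD, n = 3 each), and a fitted log2 fold change of 1.08 (SE 0.06). TRAVEDRAFT_30442 ranked 2nd at 4 weeks and 13th at 2 weeks, with 13403 ± 252 RPKM at 4 weeks and 5621 ± 75.6 RPKM at 2 weeks (1.24, SE 0.04). TRAVEDRAFT_141737 was among the 5 highest at each age, with 11709 ± 1546 RPKM at 4 weeks and 14917 ± 300.3 RPKM at 2 weeks (-0.36, SE 0.10, edgeR adjusted p = 0.00342).

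The other 4 of the 5 most abundant models at 2 weeks, protein_137427, protein_137431, protein_137426 and protein_137643, have no locus in the RefSeq table. All 4 were lower at 4 weeks, but choosing models by a high 2-week level by itself favours a fall. Of the 13 models among the 10 most abundant at either age, 10 were lower and 3 higher. Among tested genes with a mean of 100 RPKM or more, 32.1% were lower and 47.2% higher. The model protein_137431 had 2101, 1534 and 2358 CPM at 4 weeks and 3297, 3146 and 4106 CPM at 2 weeks (-0.82, SE 0.13, edgeR adjusted p = 4.36e-05). The model protein_137643 had 1868, 1585 and 2035 CPM at 4 weeks and 3414, 3133 and 3868 CPM at 2 weeks (-0.92, SE 0.11). For protein_137427 only 47.1% of reads aligned uniquely, so its count is uncertain. In all, 46 models had no RefSeq locus. They took 8 of the 10 highest places at 2 weeks and 5 at 4 weeks, and gave 7.85, 6.36 and 8.34% of the summed RPKM at 4 weeks against 11.1, 10.4 and 12.3% at 2 weeks. Of 41 tested, 13 were lower and 16 higher, against 27.4% and 33.0% over all tested genes, with a median log2 fold change of -0.07. At least 2-fold lower were 3 and at least 2-fold higher 10 (5.9% and 9.46% over all tested genes). The lowest 4-week value of each named model came from replicate 2.

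Genes read at only 1 age were rare and weakly expressed. Of 14296 models, 307 had 0 reads in all 2-week libraries and some at 4 weeks, and none of these reached a mean of 1 CPM. Of the 307, 77 were tested and 6 called. With 0 reads in all 4-week libraries and some at 2 weeks there were 384, of which 112 were tested and 14 called. Over all tested genes 60.4% were called. For most of these models a change with age is thus not shown. Only 1 of the 384 reached a mean of 1 CPM. That 1 gene, TRAVEDRAFT_51572, had 2.05, 0.42 and 1.86 CPM at 2 weeks from 126 reads, and was at least 63.6-fold lower at 4 weeks, with 3 reads in the summed libraries taken as the limit. TRAVEDRAFT_114431 was at least 8.14-fold lower at 4 weeks, from 17 reads at 2 weeks. TRAVEDRAFT_26962, with 0 reads at 2 weeks, was at least 5.42-fold higher at 4 weeks from 25 reads. TRAVEDRAFT_20658, at 0.258, 0.0758 and 0.0348 CPM at 4 weeks, was at least 3.64-fold higher from 18 reads, or at least 1.64-fold without 4-week replicate 1. TRAVEDRAFT_51589 and TRAVEDRAFT_51699 were not tested, and no read of TRAVEDRAFT_51699 aligned uniquely. A further 788 models had no read in any BRFM1218 library. Leaving out 1 library with 0 reads also lowers a bound, since fewer reads then set the limit: the lowest such bounds were 38.1 for TRAVEDRAFT_51572, 4.89 for TRAVEDRAFT_114431 (both without 4-week replicate 2), 3.49 for TRAVEDRAFT_26962 and 2.35 for TRAVEDRAFT_20658 (both without 2-week replicate 3). Bounds cover counting error only for the age with 0 reads. The reads at the other age are taken as exact, though for some genes they are few.

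The age change of BRFM1218 was set against that of 1956-1252 by an interaction test, the age effect in BRFM1218 minus that in 1956-1252, which passed in 52.9% of 12648 genes (edgeR adjusted p under 0.05). Of the 1196 genes that were at least 2-fold higher in BRFM1218, the other strain had 446 higher, 135 lower and 615 not called, and the interaction was positive and passed in 888 (27.2% over all tested genes). Of the 746 that were at least 2-fold lower, the other strain had 209 higher, 142 lower and 395 not called, and the interaction was negative and passed in 668 (25.6% over all tested genes). Over all 12648 genes the other strain had 3176 higher (25.1%), 2965 lower (23.4%) and 6507 not called. These genes were chosen for a large change in BRFM1218, which by itself favours a difference of that sign. TRAVEDRAFT_47268 was at 10.2 CPM at 4 weeks and 10.6 CPM at 2 weeks in 1956-1252, with an interaction of 5.35 (SE 0.08). TvLac6 rose in 1956-1252, to 9.37 CPM at 4 weeks against 5.43 CPM at 2 weeks. TvLac7 was higher at 4 weeks in each strain (log2 fold change 1.5 in BRFM1218 and 1.43 in 1956-1252), and its interaction of 0.07 (SE 0.31, edgeR adjusted p = 0.883) did not pass. Of the 42 genes with a symbol, the interaction passed with a positive sign in 14 (27.2% of all tested genes) and with a negative sign in 15 (25.6%). In 1956-1252 itself 19 of the 42 were higher and 0 lower, with the other 23 not called, against 25.1% higher and 23.4% lower over all tested genes in that strain. In BRFM1218 12 of the 42 were lower, against 27.4% over all tested genes.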

How the data were processed

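Total RNA came from 3 cultures per group, per the labels' protocols, and per the series' design text libraries were sequenced as paired reads on an Illumina HiSeq2000. The authors deposited, per the file headers, counts of all reads and of uniquely aligned reads for each of 14296 gene models, and RPKM for each. The aligner, counter, build and strand setting are not given in the sources used here. Counts of all reads were tested with edgeR 4.0.16 (R 4.3.3): TMM scaling, filterByExpr, glmQLFit and glmQLFTest over 12 libraries with 4 group means and 8 residual degrees of freedom, adjusted by Benjamini-Hochberg. BRFM1218 libraries held 31763162 to 63512650 reads. The common biological coefficient of variation was 8.27% over all 12 libraries and 11.2% over the 6 BRFM1218 libraries. Sharing the spread with the other strain thus made it smaller. CPM are TMM-normalised, with scaling factors set over all 12 libraries. RPKM, as deposited, served only to compare genes with each other. The script was tested on simulated data.

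Members and lists were chosen with earlier results of these data known. Named were the 10 largest rises and falls with a mean of at least 10 CPM and no overlap, every gene with a symbol, the 5 most abundant models at each age, runs of at least 4 neighbours, 3 models per age read only there, and the 3 largest changes each way at 500 CPM or more. Of the 14296 models 14250 matched a locus tag in the RefSeq table of assembly Trametes versicolor v1.0, which gave 42 symbols. The alternatives were other scalings, DESeq2 1.42.0, other filters, unique reads, BRFM1218 libraries alone, a replicate block and leaving out each library. With 3 against 3 an exact permutation test of 1 gene cannot go below p = 0.1.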

Additional observations from a re-analysis of the deposited data

Results flagged for a closer look

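For 72 of the named genes the change with age differed between the strains, by the edgeR interaction test at an adjusted p under 0.05 over 12648 genes. Each value below is the log2 change with age in BRFM1218 minus that in 1956-1252. Named genes whose interaction did not pass are not listed, among them 13 of the 42 with a symbol. The interaction passed in 52.9% of all tested genes, and the genes named for the size of their change were chosen in BRFM1218. No group held enough samples for a search for single outlying libraries.

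Of 10 lignin peroxidases 8 passed, all with a positive sign (27.2% of all tested genes did). Their interactions were 0.94 for LiP1, 0.85 for LiP2, 0.72 for LiP6, 1.78 for LiP4, 0.85 for LiP3, 1.86 for LiP9, 1.18 for LiP5 and 0.84 for LiP10. Among manganese peroxidases these were 0.86 for MnP5s, -0.67 for MnP1s, -0.60 for MnP11s, 1.43 for MnP2s and -2.36 for MnP3s. Versatile peroxidases had -0.76 for VP2, -0.98 for VP3at and 1.93 for VP1. The copper oxidases had -4.98 for TvLac6, -1.26 for TvFet3A, -2.67 for TvLac4, -0.43 for TvLac3 and -2.71 for TvLac2. The dye-decolorizing and haem-thiolate peroxidases had 1.42 for HTP3, -1.27 for HTP1, -2.65 for DyP1, -1.70 for DyP2 and 1.09 for HTP2. The remaining haem enzymes had -1.0 for CCP1, 0.45 for LDO2 and -1.23 for LDO1.

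The 10 largest rises in BRFM1218 had interactions of 4.17 for TRAVEDRAFT_75646, 5.58 for TRAVEDRAFT_153876, 5.35 for TRAVEDRAFT_47268, 2.70 for TRAVEDRAFT_144610, 3.53 for TRAVEDRAFT_23196, 2.08 for TRAVEDRAFT_168624, 2.09 for TRAVEDRAFT_150975, 4.19 for TRAVEDRAFT_50905, 3.62 for TRAVEDRAFT_29435 and 3.37 for TRAVEDRAFT_69438. The largest falls without a symbol had -8.45 for TRAVEDRAFT_103761, -5.08 for TRAVEDRAFT_52566, -5.44 for TRAVEDRAFT_137247, -4.55 for TRAVEDRAFT_41469, -4.13 for TRAVEDRAFT_59116, -5.07 for TRAVEDRAFT_49346, -4.50 for TRAVEDRAFT_127472, -3.95 for TRAVEDRAFT_21680 and -3.94 for TRAVEDRAFT_69055. The largest changes at high expression gave 3.07 for TRAVEDRAFT_56391, 2.34 for TRAVEDRAFT_28514, -3.27 for TRAVEDRAFT_166188, -3.20 for TRAVEDRAFT_133129 and -2.81 for TRAVEDRAFT_70601. The most abundant models gave 1.77 for TRAVEDRAFT_41381, 1.09 for TRAVEDRAFT_30442, -2.48 for TRAVEDRAFT_141737, -0.47 for protein_137427, -0.67 for protein_137431, -0.99 for protein_137426 and -1.06 for protein_137643. In the runs of neighbours the values were 2.27 for TRAVEDRAFT_49267, 1.85 for TRAVEDRAFT_30003, 0.82 for TRAVEDRAFT_170356, 5.04 for TRAVEDRAFT_49270, -1.84 for TRAVEDRAFT_50222, -1.44 for TRAVEDRAFT_30478, -4.10 for TRAVEDRAFT_22196 and -1.38 for TRAVEDRAFT_22197. Models read at 1 age only gave fitted values of 6.24 for TRAVEDRAFT_26962, 5.80 for TRAVEDRAFT_20658, -9.77 for TRAVEDRAFT_51572 and -6.99 for TRAVEDRAFT_114431, which depend on the prior count and are no bound.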

How the results depend on the processing

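With scaling, filter and read type changed one at a time over the 12 libraries, the calls in BRFM1218 ran from 3657 (length trend removed) to 4276 (library size only) higher, and from 3363 (library size only) to 3770 (length trend removed) lower. DESeq2, with its own filter in place of filterByExpr, called 4103 and 3663. The test against 2-fold gave 522 higher and 369 lower, in place of 1196 and 746. Those counts were 939 and 855 with the length trend removed, and 969 and 690 with the 6 BRFM1218 libraries alone. With the 6 BRFM1218 libraries alone 3310 were higher and 3352 lower, and 1 laccase was called higher, also counting TvFet3A. Replicate numbers gave no sign of pairing: same-number deviations correlated at -0.06, 0.09 and 0.02, and different-number ones at -0.12 to 0.11. So few libraries cannot exclude pairing. The replicate block gave 3348 higher and 3395 lower, and 1 laccase higher. Leaving out each library gave 3847 to 4249 higher, 3263 to 3523 lower, 1175 to 1244 at least 2-fold higher and 726 to 811 at least 2-fold lower. It gave 8 to 9 lignin peroxidases higher, 4 to 5 manganese peroxidases higher and 0 to 3 lower. For laccases it gave 1 to 2 higher and 3 to 4 lower, and with TvFet3A 1 to 2 higher and 4 to 5 lower.

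Runs of at least 3 neighbours numbered 19 higher and 8 lower, and runs of at least 5 numbered 1 and 0. The genes whose sign turned were not called under any setting run, except MnP4s, which was called lower without 4-week replicate 1 (-0.6, edgeR adjusted p = 0.0334). HTP1 was at -0.13 with the length trend removed and ran from -0.03 (without 4-week replicate 3) to 0.1 when each library was left out. MnP9s was at -0.13 with the length trend removed, -0.01 with 6 libraries, -0.04 with the replicate block, and ran from -0.22 to 0.29 when each library was left out, below 0 without 2-week replicate 3 (-0.17), 4-week replicate 2 (-0.04) and 4-week replicate 3. MnP11s was at -0.15 with the length trend removed, -0.02 with 6 libraries, -0.02 with the block, and from -0.02 to 0.08 when each library was left out, below 0 without replicate 1 of either age. With each library left out, TvLac1 ran from -0.05 (without 4-week replicate 1) to 0.44, and MnP4s from -0.6 to 0.03 (without 4-week replicate 2). The cause of these changes was not tested. Bounds for genes read at 1 age were recomputed without each library, an alternative chosen after seeing the data. Of the other values for single genes, 1232 kept direction and call, 22 lost the call and 12 gained it. Protein families and protein or promoter features were not run, since no protein or promoter table was used here. Intervals from 3 cultures limit small changes, and genes under about 1 CPM rest on few reads.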
